A study of Mus musculus with 5 samples.

Results

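Blood endothelial cells of colon tumors and of normal colon were taken from 5 inDrop single-cell RNA-seq libraries of mice, in which RNA of single cells is captured in droplets and counted as unique molecular identifiers (UMIs). A cell was a member when the summed UMIs of Pecam1, Cdh5, Kdr, Plvap, Egfl7, Esam and Flt1 reached 4 and those of the lymphatic genes Lyve1, Mmrn1, Flt4, Reln and Ccl21a stayed under 3. This rule found 224 members among 8491 kept cells (2.64%). All animals were labelled wild type. In 4 libraries the tissue was tumor induced with azoxymethane and dextran sodium sulfate (AOM/DSS) and treated with 5-fluorouracil and irinotecan, and every tumor library was treated, so that no untreated tumor entered. Day 1 replicates 1 and 2 formed the early group, and 1 library each of day 3 and day 6 formed the late group. The normal colon was 1 library of untreated wild-type animals, prepared by stripping the crypts and enriching stroma, whereas the tumor preparation kept epithelial pieces. No endothelial sort was described for either tissue. Tumor, chemotherapy, dissociation and library therefore cannot be told apart in any difference from normal colon. Ages and the number of animals behind each library are not used here, and p-values measure the spread between libraries only.

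Blood endothelial cells line vessels and differ along them: arteries carry Notch signalling, capillaries take up fatty acids and venules admit leukocytes through selectins and chemokine receptors. VEGF from the tissue acts on Kdr and Flt1 of these cells to drive sprouting. In tumors, vessels are known to be irregular and leaky, and endothelial cells of the gut carry the homeobox factor Nkx2-3.

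Members numbered 12 of 748 kept cells in day 1 replicate 1, 85 of 2403 in day 1 replicate 2, 50 of 1419 in day 3, 18 of 2826 in day 6 and 59 of 1095 in normal colon. Values below follow this order of libraries. Kept cells had a median of 2930, 3592, 3134, 2898 and 2999 UMIs, against 4017, 5447, 5753, 2617 and 3064 UMIs in members, so members of 3 tumor libraries were deeper than the cells around them. Pairs of libraries shared 4 to 41 barcodes by sequence, and no member's barcode occurred as a member in a second library. Of cells that passed the count of 4, 154 were left out for lymphatic UMIs. Just outside the limit, 79 cells held exactly 3 UMIs of the 7 rule genes, and just inside it 32 cells held exactly 4. Endothelial markers that the rule did not use took 0.03% to 0.16% of the UMIs of the former and 0.009% to 0.085% of the latter.

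The label was checked with 25 measured endothelial markers outside the rule, among them Emcn, Tie1, Sox18, Robo4 and Ptprb. They took 0.740%, 0.371%, 0.433%, 0.462% and 0.880% of the summed UMIs of members, against 0.028% to 0.049% of the summed UMIs of all other cells. Among single members, however, the share ran from 0 to above 1%, and the plot of members shows a group at the lower left with few endothelial UMIs in deep cells. Because the limit of 4 UMIs did not scale with depth, a second reading used members whose rule genes took at least 0.2% of their UMIs, a limit chosen after seeing the data. These endothelial-rich members numbered 9, 55, 36, 15 and 50, or 165 in all, with median marker shares of 1.10%, 1.03%, 0.704%, 0.698% and 1.22%. The remaining 59 members (3, 30, 14, 3 and 9) had medians of 0.067%, 0.037%, 0.148%, 0.040% and 0.031%. These lay near the pooled level of all other cells except in day 3, where all other cells stood at 0.034%. Their median depth was 15098.5 UMIs in day 1 replicate 2 and 12527 in day 6. The data go against the endothelial label for many of these 59 cells, and list results are also given for endothelial-rich members alone.

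**Figure D1:**
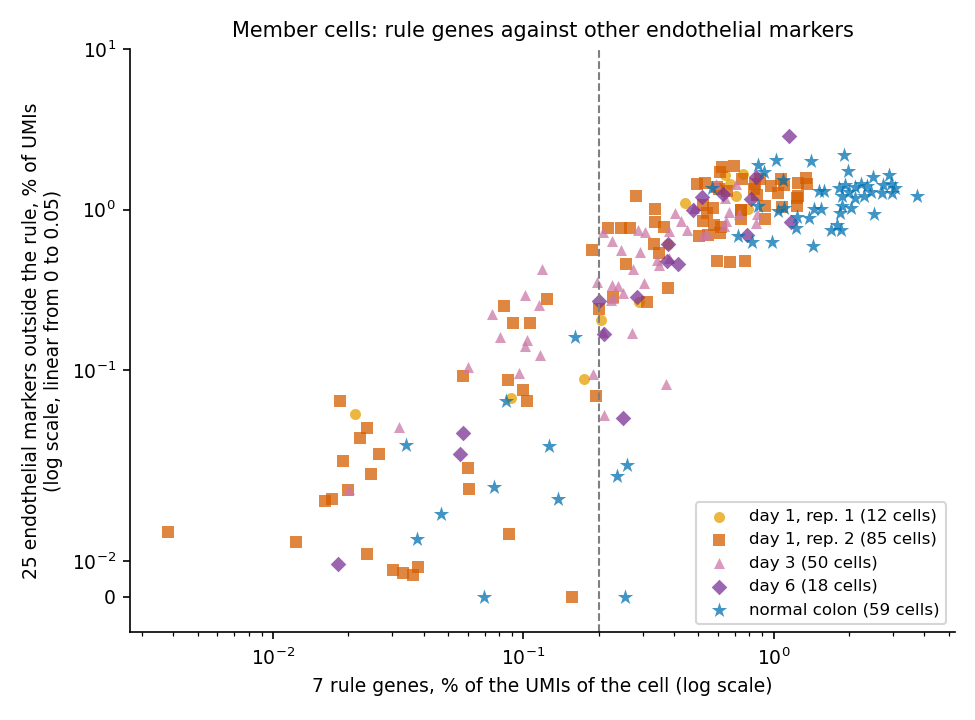
Each point is 1 of the 224 members; the x axis gives the 7 rule genes and the y axis the 25 endothelial markers outside the rule, both as % of the UMIs of the cell, on log scales (the y axis linear near 0). The dashed line at 0.2% separates the 165 endothelial-rich members at the right, whose median marker share lies between 0.698% and 1.22% by library, from 59 members at the left.

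Markers of other cell types were present in the sums and moved with the groups. The 8 columnar epithelial markers summed to 3390, 6815, 8134, 3773 and 3173 CPM (UMIs of a gene scaled to the same total UMIs in each library's sum) in members, below the 7705 to 11710 CPM of all other cells. In endothelial-rich members they stood at 2901, 3440, 7279 and 5460 CPM in the tumor libraries and 593 CPM in normal colon. Squamous epithelial markers, such as the keratin Krt6a, reached 1517, 1808, 5841, 10360 and 159 CPM in members, and in all other cells they rose in the same order of libraries, from 3981 and 4363 to 7486 and 12830 CPM in tumors, with 574 CPM in normal colon. Pericyte and smooth muscle markers ran the other way, with 198, 1055, 47.4 and 35.7 CPM in tumor members and 8408 CPM in normal members. Macrophage markers stood at 8010 CPM in day 6 members against 136 to 432 CPM in the other tumor libraries and 139 CPM in normal colon. In endothelial-rich members of the tumor libraries they lay between 97.9 and 249 CPM. Other lists did not all drop in this way. Fibroblast markers stood at 1451, 1888, 356 and 2523 CPM in tumor members and 2126, 296, 429 and 5093 CPM in endothelial-rich ones. Pericyte and smooth muscle markers stood at 4061 CPM in endothelial-rich members of normal colon. B and plasma cell markers, led by immunoglobulin genes, ranged from 204.5 CPM in day 3 to 7857 CPM in day 1 replicate 2. In endothelial-rich members of the tumor libraries they stood at 2861, 974.5, 192 and 7689 CPM. Doublets were not removed, and the part of free RNA or doublets in these levels was not tested.

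**Figure D2:**
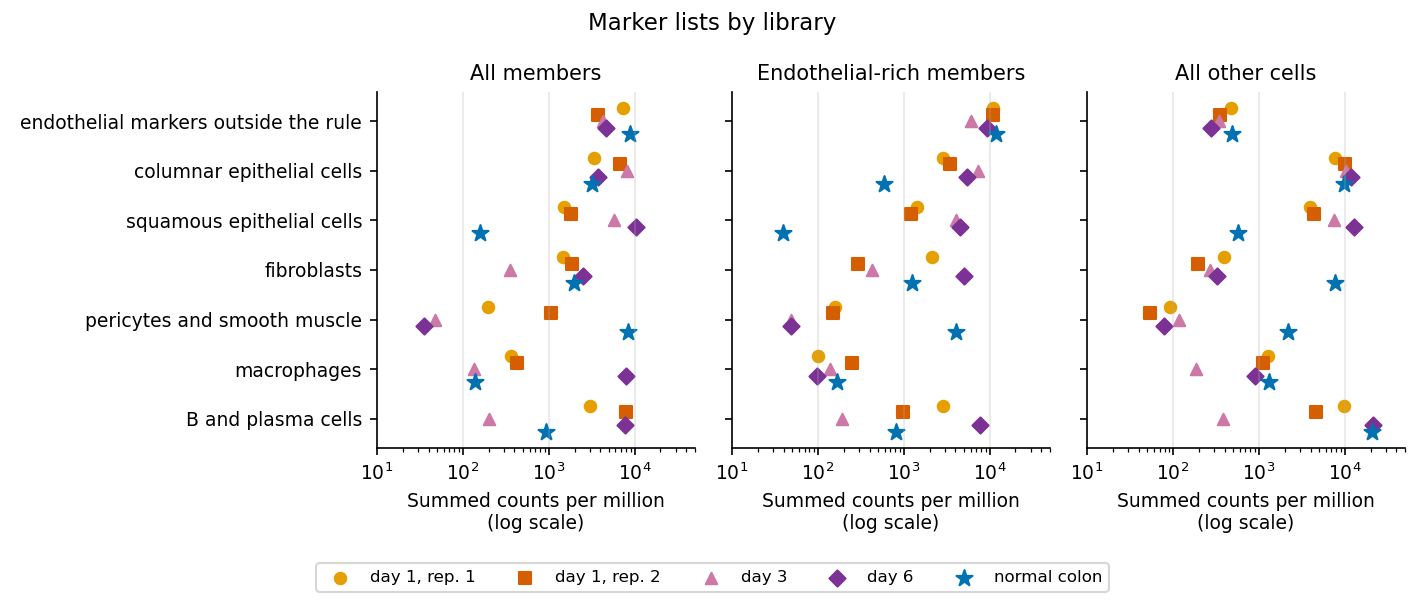
Summed CPM (x axis, log scale) of 7 marker lists, with 1 point per library, in all members, in endothelial-rich members and in all other cells. Endothelial markers outside the rule are far higher in endothelial-rich members than in all other cells, while squamous markers are lowest and pericyte markers highest in normal colon in all 3 panels.

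The share of cells that were members was 1.60% in day 1 replicate 1 (exact 95% interval 0.832% to 2.79%), 3.54% in day 1 replicate 2 (2.84% to 4.36%), 3.52% in day 3 (2.63% to 4.62%), 0.637% in day 6 (0.378% to 1.01%) and 5.39% in normal colon (4.13% to 6.90%). Intervals cover counting error only. Normal colon was highest and day 6 lowest, and the early and late libraries overlapped. The tumor libraries averaged 3.06 points lower than normal colon (exact permutation test, two-sided, p = 0.2, the smallest that 4 libraries against 1 allow). Late and early libraries differed by -0.49 points (exact permutation test, two-sided, p = 0.667; 2 against 2 cannot go below 0.33). After each cell was thinned to 1000 UMIs the shares were 1.47%, 1.54%, 1.41%, 0.415% and 4.36%. Without members in which UMIs of markers of other cell types outnumbered those of the rule genes, 0.267%, 1.04%, 0.211% and 3.74% of cells were left in day 1 replicates 1 and 2, day 3 and normal colon, and none in day 6. The dissociation of tumor and normal tissue can set these shares.

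Genes that stood out in members over all other cells are a description, since the members were chosen on genes of the same cells, and they pool libraries of unequal levels. Among genes outside the rule with enough counts, the ratio was highest for Fabp4, the fatty acid binding protein of capillary endothelium (152.6 times the pooled level of other cells), of whose 830 counts the normal members held most. Sox17, an arterial transcription factor, stood at 67.35 times and Adgrl4, an adhesion receptor of endothelial cells, at 66.76 times. They were followed by genes including Aplnr, the receptor of apelin, Sema3g, an arterial semaphorin, Madcam1, the mucosal addressin, Robo4 and Ptprb, which guard the vessel barrier, and Gpihbp1, which anchors lipoprotein lipase on capillaries.

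Levels of the rule genes themselves chose the members and are given with no test. Kdr, the main VEGF receptor, stood at 264, 237, 163 and 309.5 CPM in tumor members and 2175 CPM in normal members. Flt1, the VEGF receptor that also acts as a decoy, stood at 818, 474, 388, 298 and 2049 CPM, and Plvap, which forms the diaphragms of fenestrated capillaries, at 1003, 297, 560, 357 and 3190 CPM. Pecam1, a junctional adhesion molecule, varied less, with 1108, 576, 578, 988 and 1267 CPM. All 7 were highest in normal colon when all members were read. In endothelial-rich members Pecam1 stood at 1590, 1732, 809 and 1738 CPM against 1706 CPM, while the other rule genes stayed highest in normal colon.

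Tumor and normal members were compared on counts summed per library by edgeR's quasi-likelihood test with Benjamini-Hochberg adjustment over 7906 genes (with 9 cells in the endothelial-rich sum of day 1 replicate 1); fold changes are tumor over normal colon. Of all genes tested, 13 rose (0.164%) and 117 fell (1.48%), and 1065 had an unadjusted p under 0.05. In endothelial-rich members 29 of 6455 genes rose (0.449%) and 112 fell (1.74%). When each library was scaled to its endothelial markers outside the rule, a choice made after seeing the data, 100 genes rose (1.26%) and 39 fell (0.493%). The median log2 fold change of all genes moved from 0.15 to 1.29 under that scaling, so the balance of higher and lower calls depended on the scaling. Calls named below are for all members unless said otherwise. The normal side was 1 library, which the fit assumes to vary as the tumor libraries do. A gene could therefore pass the filter on low counts through normal colon alone. Among the genes named below, Cd36, Tcf15, Car4, Jam3, Gdf15, Bst2, Rsad2, Isg15 and Gbp7 did so. Myl9, Actg2, Myh11, Cnn1, Hhip, Thrsp, Enpep and Hspa1a did so too. Slc39a14, Krt6a and the other genes below without a count in normal members passed the filter through tumor libraries alone. For all of these genes the filter set the direction. In simulated sums of the same depth, 38 of 189 genes changed 8-fold were called, so most changes of that size would be missed. The rule genes were left out of the lists that follow.

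Genes of capillaries and lipid handling were lower in tumor members. Of 13 tested, 5 fell and none rose, with a median log2 fold change of -2.91 against 0.15 for all genes. Of the 5, Cd36, Tcf15 and Car4 entered the test through normal colon alone, and Fabp4 and Ly6c1 did not. In endothelial-rich members 6 of 12 fell, and 3 still fell under the endothelial scaling, where the list's median was -1.70 against 1.29 for all genes. Fabp4 stood at 105.5, 117, 101 and 95.2 CPM in the 4 tumor libraries and 2790 CPM in normal colon (log2 fold change -4.94 ± 0.57 SE, edgeR adjusted p = 0.000893; -3.79, adjusted p = 0.00525 under the endothelial scaling). The tumor libraries lay close together and far below normal colon. Cd36, the fatty acid translocase, had 0, 1.23, 2.96 and 0 CPM in tumors and 175 CPM in normal colon (-6.71 ± 0.86 SE, edgeR adjusted p = 0.00138; 0.0181 under the endothelial scaling). Tcf15, a transcription factor of capillary endothelium that acts on fatty acid uptake, had 0, 3.70, 0 and 0 CPM against 187 CPM (-6.47 ± 0.86 SE, edgeR adjusted p = 0.00165; 0.0177 under the endothelial scaling). Ly6c1, a surface protein of arterial and capillary cells, stood at 277, 194, 364.5 and 357 CPM against 2550 CPM, with all other cells of the tumor libraries at 69.8 to 365 CPM. Car4, a carbonic anhydrase of capillaries, stood at 13.2, 1.23, 20.7 and 35.7 CPM against 216 CPM; both calls were lost under the endothelial scaling (edgeR adjusted p = 0.136 and 0.0978). Gpihbp1 did not pass, with 13.2, 42.0, 145 and 11.9 CPM against 224 CPM (edgeR adjusted p = 0.332).

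The same order was seen cell by cell. After thinning to 1000 UMIs, Fabp4 was detected in 1 of 9, 9 of 55, 8 of 36 and 1 of 15 endothelial-rich tumor members and in 38 of 46 normal ones (the other 4 held too few UMIs; 82.6%, exact 95% interval 68.6% to 92.2%), with at most 0.733% of other cells in any library. Cd36 was detected in 0 of 115 tumor members and 9 of 46 normal ones, and Tcf15 in 0 of 115 and 7 of 46. The 7 rule genes were also each detected in a smaller part of these tumor members, such as Kdr in 42 of 115 against 37 of 46. Emcn was alike, in 48 of 115 and 20 of 46. The epithelial keratin Krt8 was detected in 80 of 115 tumor members and 8 of 46 normal ones. The part of epithelial RNA within the 1000 UMIs in these gaps was not tested. Cells of 1 library are not replicates, and no test was run on them.

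Nkx2-3, which directs the identity of gut vessels, stood at 39.6, 38.3, 35.6 and 47.6 CPM in tumor members and 546 CPM in normal members (log2 fold change -4.00 ± 0.55 SE, edgeR adjusted p = 0.00194; -2.83, adjusted p = 0.0404 under the endothelial scaling). The tumor libraries spanned a narrow range with no overlap with normal colon. A floor of 3 counts lay at 39.6 CPM in day 1 replicate 1 and 35.7 CPM in day 6. Their values therefore rested on few counts, and the narrow range cannot show agreement between libraries. Among other cells thinned to 1000 UMIs, 13.2% of those of normal colon and at most 0.607% of those of any tumor library had a UMI of Nkx2-3, against 19 of 46 and 6 of 115 endothelial-rich members. Apold1, an early response gene of endothelial cells, stood at 39.6, 55.5, 35.6 and 95.2 CPM against 1829 CPM (log2 fold change -5.28 ± 0.63 SE, edgeR adjusted p = 0.000893; -4.10, adjusted p = 0.00239 under the endothelial scaling).

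Promoters are shown for Cd36 and Nkx2-3, to give the sequence at genes that fell in tumor members, and for Kdr as the VEGF receptor among the rule genes. They are 250 bases before to 50 after the start, 5′ to 3′ on the strand of the gene, from RefSeq on GRCm38.p6. Capitals mark AGGTCA, the half-site of nuclear receptors, and GGAAG, the core of ETS factors, searched on both strands, so that a match on the opposite strand reads TGACCT or CTTCC. The Cd36 window is chr5:17835847-17836146 on the minus strand, the Kdr window chr5:75978406-75978705 on the minus strand and the Nkx2-3 window chr19:43612075-43612374 on the plus strand.
Cd36: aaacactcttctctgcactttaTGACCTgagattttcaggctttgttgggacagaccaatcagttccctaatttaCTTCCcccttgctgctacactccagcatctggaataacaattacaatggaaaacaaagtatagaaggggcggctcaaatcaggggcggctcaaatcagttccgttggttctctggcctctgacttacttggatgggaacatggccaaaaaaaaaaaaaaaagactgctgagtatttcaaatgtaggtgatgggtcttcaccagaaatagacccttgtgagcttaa
Kdr: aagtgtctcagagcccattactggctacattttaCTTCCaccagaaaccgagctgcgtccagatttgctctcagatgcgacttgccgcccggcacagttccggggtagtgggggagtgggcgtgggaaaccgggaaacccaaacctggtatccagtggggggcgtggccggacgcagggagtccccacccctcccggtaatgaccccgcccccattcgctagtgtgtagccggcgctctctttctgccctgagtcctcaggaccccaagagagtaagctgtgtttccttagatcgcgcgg
Nkx2-3: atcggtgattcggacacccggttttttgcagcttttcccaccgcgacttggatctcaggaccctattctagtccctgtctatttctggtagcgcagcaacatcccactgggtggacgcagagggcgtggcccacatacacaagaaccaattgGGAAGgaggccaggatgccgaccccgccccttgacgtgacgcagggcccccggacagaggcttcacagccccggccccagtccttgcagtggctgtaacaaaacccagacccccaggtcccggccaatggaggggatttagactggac
Each window held 1 GGAAG match, as 71.4% of all 32851 promoters did with at least 1, and the Cd36 window held 1 AGGTCA match, which 16.3% of all promoters hold. A match is only a run of letters in this window.

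Arterial and Notch genes were also lower. Of 13 tested, 4 fell and none rose, with a median log2 fold change of -1.77, and in endothelial-rich members 3 of 14 fell. None kept its call under the endothelial scaling, where the list's median was -0.54 against 1.29 for all genes. Sox17 is itself among the markers used for that scaling. Sox17 stood at 26.4, 24.7, 23.7 and 47.6 CPM in tumor members and 289 CPM in normal members (log2 fold change -3.55 ± 0.59 SE, edgeR adjusted p = 0.00624; 0.113 under the endothelial scaling). Dll4, the Notch ligand of arterial and tip cells, stood at 39.6, 54.3, 71.1 and 71.4 CPM against 342 CPM (-2.71 ± 0.57 SE, edgeR adjusted p = 0.0298; 0.283 under the endothelial scaling and 0.0641 in endothelial-rich members). For both genes all other cells stood below 20 CPM in every library. Hes1, a target of Notch, stood at 26.4, 74.0, 121.5 and 71.4 CPM against 937 CPM, but it was also lower in the other cells of tumors, at 98.5 to 144 CPM against 459 CPM. Cxcl12, a chemokine of arterial and stromal cells, stood at 13.2, 64.2, 35.6 and 119 CPM against 778 CPM, and the other cells of normal colon held 526 CPM. Gja4, an arterial connexin, and Sema3g did not pass (edgeR adjusted p = 0.404 and 0.285).

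**Figure D3:**
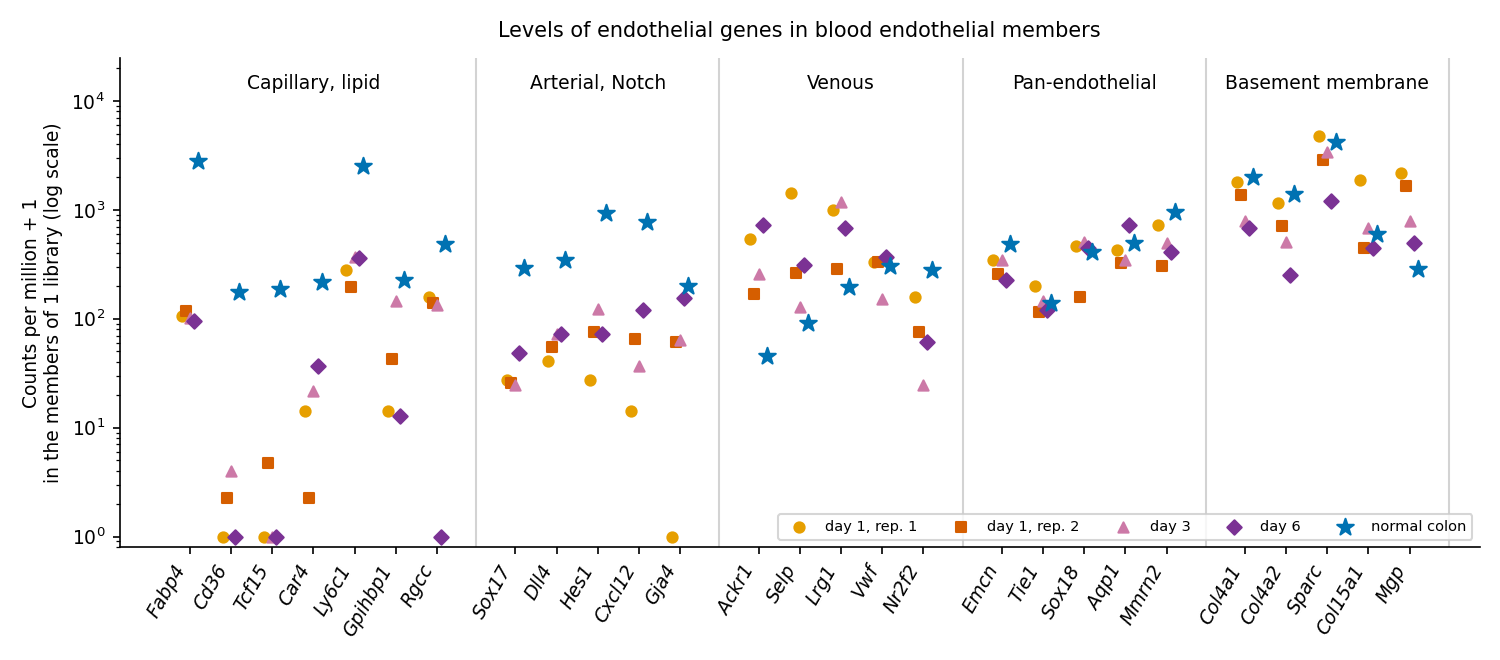
CPM + 1 in the members of each library (y axis, log scale) of endothelial genes in 5 groups, with 1 symbol per library. The star of normal colon stands above all 4 tumor libraries for Fabp4, Cd36, Tcf15, Sox17, Dll4 and Hes1 and below them for Ackr1 and Selp, while it lies among them for Vwf, Tie1 and Sparc.

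Venous genes showed no such gap. Of 11 tested in the list of venous and postcapillary genes, none rose or fell, and the median log2 fold change was -0.13. In endothelial-rich members none of 10 passed and the median was 0.52. Ackr1, the atypical chemokine receptor of venules, was higher in each tumor library, at 541, 168, 255 and 726 CPM against 44.8 CPM in normal members, but did not pass (log2 fold change 2.96 ± 1.02 SE, edgeR adjusted p = 0.203; 0.0712 under the endothelial scaling). Selp, the P-selectin that tethers leukocytes, stood at 1425, 262, 127 and 309.5 CPM against 89.6 CPM (2.23 ± 1.18 SE, edgeR adjusted p = 0.443). The groups did not overlap for either gene, but day 1 replicate 1 alone set the highest Selp level. Thinned to 1000 UMIs, 24 of 115 endothelial-rich tumor members (20.9%) and 1 of 46 normal ones (2.17%) had a UMI of Ackr1, with at most 1.09% of other cells in any library. Selp was detected in 28 of 115 (24.3%) and 2 of 46 (4.35%), with at most 1.22% of other cells. Vwf, the platelet adhesion factor stored in venous cells, did not differ beyond the spread, with 330, 328, 151, 369 and 301 CPM. Lrg1 stood at 1003, 287.5, 1179 and 678.5 CPM against 195.5 CPM, but it was found in 14.7% to 51.8% of the other cells of the tumor libraries, so no difference is read from it. Nr2f2, the venous transcription factor, stood at 158, 74.0, 23.7 and 59.5 CPM against 281 CPM (edgeR adjusted p = 0.154).

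Leukocyte adhesion genes and chemokines had 1 call among 15 tested, the fall of Cxcl12, which was also the 1 call among 11 in endothelial-rich members. Icam1, the integrin ligand, stood at 277, 54.3, 53.3, 226 and 159 CPM, with normal colon inside the range of tumors. Madcam1, which brings lymphocytes to the gut, stood at 501, 28.4, 41.5, 238 and 93.7 CPM and varied more among the tumor libraries than between groups.

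In the VEGF and angiopoietin pathway, 1 of 15 genes outside the rule fell and none rose, with a median log2 fold change of -1.49. Nrp1, the coreceptor of VEGF, stood at 369, 281, 160 and 309.5 CPM in tumors and 1528 CPM in normal colon (-2.71 ± 0.59 SE, edgeR adjusted p = 0.0363; 0.278 under the endothelial scaling and 0.0673 in endothelial-rich members, where none of 13 genes passed and the median was -1.42). The angiopoietin receptor Tek stood at 92.3, 85.2, 32.6, 107 and 143 CPM, and its partner Tie1 at 198, 114, 145, 119 and 139 CPM, where normal colon lay within the tumor range. Angpt2, the angiopoietin released by activated endothelium, stood at 132 CPM in day 1 replicate 1 and 32.6 to 35.7 CPM in the other tumor libraries, against 48.9 CPM in normal colon.

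Genes of tip cells and sprouting were not raised in tumor members at this depth. Of 20 tested, none rose and Dll4 fell, with a median of -0.47. In endothelial-rich members none of 20 passed and the median was -0.22. Apln, the ligand of sprouting cells, stood at 52.8, 131, 148, 0 and 147 CPM, and its receptor Aplnr at 92.3, 55.5, 65.2, 23.8 and 167 CPM (edgeR adjusted p = 0.774 and 0.24). Esm1, a secreted marker of tip cells, was found in day 1 replicate 2 at 17.3 CPM and in normal colon at 40.7 CPM, and at 0 in the other libraries. Basement membrane genes held no call among 14 tested in either reading (medians -0.64 and -0.24). Col4a1, a chain of the collagen IV sheet, stood at 1807, 1366, 782, 679 and 2008 CPM, and Sparc, a matrix protein, at 4762, 2838, 3360, 1214 and 4171 CPM.

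Of the 25 endothelial markers outside the rule, Sox17, Sox7 and Cldn5 fell, none rose, and 22 had a fold change below 0 (median -1.17). The endothelial scaling sets the summed level of these 25 markers equal between libraries, so it removes this common shift by construction. None of the 3, which are themselves part of the scaling, passed after it. In endothelial-rich members the median was -0.65 and Sox17 alone passed. Emcn, a sialomucin of veins and capillaries, stood at 343, 254, 347, 226 and 489 CPM, and Sox18, a factor of vessel identity, at 462, 157, 507, 440 and 407 CPM. In endothelial-rich members Emcn stood at 517, 769, 493, 465 and 666 CPM, with normal colon inside the tumor range. Among genes of junctions and permeability, Cldn5, the tight junction protein of endothelium, and Jam3, a junctional adhesion molecule, fell among 12 tested, and of these Jam3 alone among 11 in endothelial-rich members. Jam3 stood at 0, 18.5, 8.89 and 0 CPM against 228 CPM (-4.52 ± 0.75 SE, edgeR adjusted p = 0.00624; 0.0563 under the endothelial scaling). Among 25 endothelial transcription factors, 5 fell: Tcf15, Sox17, Sox7, Klf2 and Klf4, of which 1, Tcf15, kept its call under the endothelial scaling. In endothelial-rich members 5 of 25 fell, and Sox7 was not among them (edgeR adjusted p = 0.0761).

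Klf2 and Klf4, which flow in the vessel is known to raise, belong also to the 11 shear and quiescence genes tested, of which 4 fell in all members and 4 in endothelial-rich ones. Klf2 stood at 66.0, 86.4, 196 and 298 CPM in tumors and 1825 CPM in normal colon (-3.70 ± 0.72 SE, edgeR adjusted p = 0.0176; 0.0882 under the endothelial scaling). Thbd, the anticoagulant thrombomodulin, stood at 26.4, 29.6, 2.96 and 83.3 CPM against 310 CPM (edgeR adjusted p = 0.0452; 0.136 under the endothelial scaling). Klf2 was also lower in other cells of the tumors, at 41.1 CPM or less against 410 CPM. Both factors are induced by tissue dissociation as well, which moves with these groups.

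Dissociation stress genes showed the largest shift of the lists of cell states. Of 19 tested, 15 fell in all members and 15 in endothelial-rich members, and 10 fell under the endothelial scaling, with medians of -4.12, -4.40 and -3.02. Fos, an immediate early gene, stood at 198, 136, 196 and 381 CPM in tumor members and 6628 CPM in normal members (-5.10 ± 0.66 SE, edgeR adjusted p = 0.00138). Egr1, of the same kind, stood at 26.4, 58.0, 29.6 and 47.6 CPM against 2933 CPM (-6.34 ± 0.63 SE, edgeR adjusted p = 0.000358), and the heat shock gene Hspa1a at 0, 16.0, 5.93 and 35.7 CPM against 868 CPM. The gap was not particular to members: Fos stood at 233 to 344 CPM in other cells of the tumors and 4891 CPM in other cells of normal colon, and 17 of the 19 genes were lower in the other cells of tumors. The part of dissociation in the changes of other lists was not tested.

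Of 17 interferon response genes tested, 5 fell in tumor members, with a median of -2.57, and 4 of 17 fell in endothelial-rich members, with a median of -2.18. Of the 5, Bst2, Rsad2, Isg15 and Gbp7 entered the test through normal colon alone, so the filter set their direction. Bst2, the virion tether, stood at 13.2, 4.94, 14.8 and 11.9 CPM against 232 CPM (-4.73 ± 0.70 SE, edgeR adjusted p = 0.00329; 0.0347 under the endothelial scaling), and Rsad2, the antiviral enzyme viperin, at 26.4, 3.70, 8.89 and 0 CPM against 216 CPM (edgeR adjusted p = 0.00501; 0.0326 under the endothelial scaling). Isg15, Gbp7 and Ifi27 fell too, and lost their calls under that scaling. Ifitm3 did not follow, with 2401, 1481, 1633, 3416 and 1442 CPM. In other cells, 5 of the 17 genes were lower and 12 higher in tumors. None of 13 genes of MHC class I presentation passed, although all 13 had a fold change below 0 (median -0.96), and none passed in endothelial-rich members (median -0.91).

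Among p53 targets, which DNA damage is known to raise, 1 of 19 tested fell and none rose, with a median of 0.39, and in endothelial-rich members none of 12 passed (median -0.01). The arrest gene Cdkn1a stood at 1148, 991, 1194, 440 and 888 CPM, with normal colon inside the tumor range. Gdf15, a stress cytokine, fell, from 200 CPM in normal members to 13.2, 3.70, 2.96 and 0 CPM, as it stood in the other cells (226 CPM against 1.07 to 24.2 CPM). None of 20 cell cycle genes and none of 21 hypoxia and glycolysis genes passed (medians 1.21 and 0.14; 0.40 and 0.26 in endothelial-rich members, with no call).

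**Figure D4:**
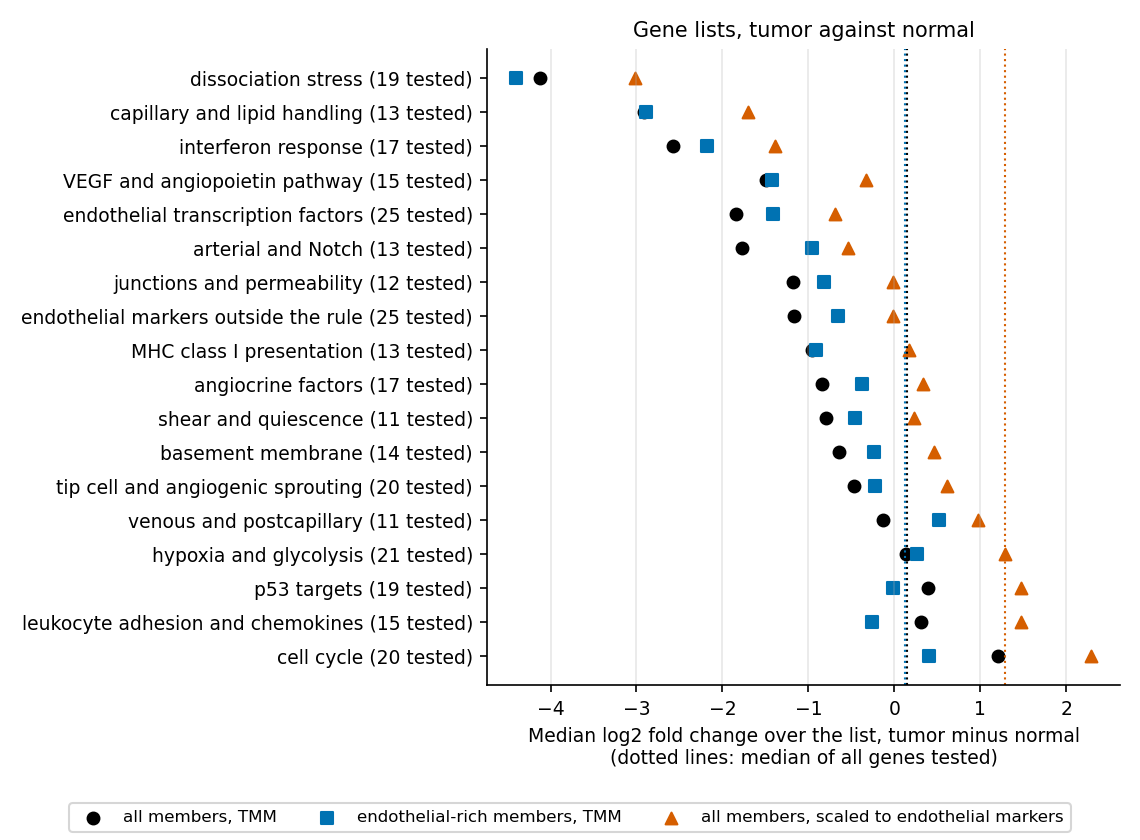
Median log2 fold change, tumor minus normal (x axis), of 18 gene lists in all members, in endothelial-rich members and in all members scaled to the endothelial markers; dotted lines are the medians of all genes tested, 0.15, 0.12 and 1.29. Dissociation stress and capillary genes lie farthest below those lines in each reading.

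The remaining named genes, chosen by size, mostly marked other cells. Of the 10 largest falls among genes with at least 2 times the level of other cells, Cd36 and Tcf15 are described above, and Myl9, Actg2, Myh11, Tagln and Cnn1 encode contractile proteins of smooth muscle. Cnn1 had no count in any tumor library and 167 CPM in normal members, at least 72.8-fold lower against a floor of 3 counts over the tumor group. Hhip, an inhibitor of hedgehog signalling, was likewise 0 in tumors and 493 CPM in normal members, at least 215-fold lower. Thrsp, a regulator of lipid synthesis, stood at 2.47 CPM in day 1 replicate 2, at 0 in the other tumor libraries and at 118 CPM in normal colon, and Enpep, a peptidase of pericytes, stood at 3.70 CPM in day 1 replicate 2, at 0 in the other tumor libraries and at 143 CPM in normal colon. Rgs5, the marker that defines pericytes, stood at 0, 537, 0, 0 and 2403 CPM, and in thinned endothelial-rich members it was detected in 0 of 115 tumor and 18 of 46 normal cells. Among the rises, Slc39a14, a transporter of zinc and iron, stood at 158, 82.7, 107 and 95.2 CPM in tumors with no count in normal members, at least 7.7-fold higher (edgeR adjusted p = 0.0241), and the pooled other cells held 39.7 CPM in tumors and 7.94 CPM in normal colon. A further 9 genes were absent from normal members and present in each tumor library without passing: the hormone Pyy, the acute phase protein Saa3, the antimicrobial lectin Reg3b, the metalloproteinases Mmp3 and Mmp13, the urea transporter Slc14a1, and Pf4, C1qa and Pnliprp1. Slc14a1, for one, stood at 251, 33.3, 26.7 and 143 CPM (edgeR adjusted p = 0.161). Krt6a rose as well, at 435, 562, 1274 and 1476 CPM against 0, with 1186 to 2488 CPM in the other cells of tumors and 0 CPM in those of normal colon. Slc39a14, Krt6a and these 9 genes passed the filter on low counts through tumor libraries alone, which set their direction.

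Late and early tumor members were compared to follow the vessels over the days of treatment. By edgeR's quasi-likelihood test, 0 of 5224 genes rose or fell (0% in each direction), with 355 at an unadjusted p under 0.05. DESeq2 called 12 higher (0.23%) and 5 lower (0.0957%) in late libraries. They included the keratins Krt4, Krt5, Krt13, Krt14 and Krt15 and the squamous gene Sprr2d, and squamous markers also rose with day in all other cells. The p53 target Trp53inp1, which DESeq2 called lower, stood at 409, 109, 5.93 and 0 CPM in members and 99.2, 115, 13.8 and 31.1 CPM in other cells (log2 fold change -5.40 ± 1.07 SE, edgeR adjusted p = 0.338; DESeq2 adjusted p = 0.0279). It entered the test through the early libraries alone, so the filter on low counts set its direction. Among genes with at least 20 counts and at least 2 times the level of other cells, whose early and late libraries did not overlap, the largest gaps downward were those of Adamts2, a procollagen peptidase, Col5a1, Col5a2 and Col5a3, chains of collagen V, Col6a2, the matrix protein Tnc, Cyp26b1, which degrades retinoic acid, the cytokine Il11, the receptor Notch3 and the defensin Defa22. All of these but Tnc passed the filter on low counts through the early libraries alone, which set their direction. Col5a3 stood at 277 and 148 CPM in day 1 and 5.93 and 0 CPM in day 3 and day 6 (edgeR adjusted p = 0.201), with 417 CPM in the endothelial-rich members of day 1 replicate 1 and none in those of day 1 replicate 2. In endothelial-rich members of day 1 replicates 1 and 2, Adamts2 stood at 119 and 3.95 CPM and Cyp26b1 at 159 and 7.89 CPM. Col5a1 stood there at 298 and 3.95 CPM, and Col5a2 at 79.5 and 134 CPM. Notch3 had no count in endothelial-rich members of any tumor library. Among genes with at least 2 times the level of other cells, the largest gaps upward were of Sprr2d, Trem1, Lcn2, Tmem158, Pcp4l1, Lrrc59, Dusp2, Ctsz, Klf2 and Zfp703. Of these, Sprr2d, Trem1, Tmem158, Pcp4l1, Lrrc59 and Ctsz passed that filter through the late libraries alone, which set their direction. Klf2, at the levels given above, was 1.78 ± 0.54 SE higher on the log2 scale (edgeR adjusted p = 0.549) and 0.89 ± 0.60 SE higher in endothelial-rich members (edgeR adjusted p = 0.602), while its level in other cells was lower in the late libraries. In simulated sums of this comparison edgeR called 94 of 189 genes changed 8-fold.

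No endothelial gene passed between early and late libraries by edgeR, and list medians depended on the members read. The 19 tested endothelial markers outside the rule had a median log2 fold change, late over early, of -0.05, against 0.04 for all genes. In endothelial-rich members the median was -0.52 over 20 tested, against 0.06 for all genes, and those of the VEGF and tip cell lists were -0.76 and -0.78, against -0.13 and 0.00 in all members. Fabp4 differed by -0.01 ± 0.51 SE in all members and by -0.57 ± 0.58 SE in endothelial-rich ones. Venous genes had a median of -0.21 over 9 tested (-0.55 in endothelial-rich members), and basement membrane genes of -0.83 over 13 (-0.77 in endothelial-rich members). Col4a1, given above, was higher in each early library than in each late one, with an edgeR adjusted p of 0.739. The 13 tested genes of the cell cycle (median 2.10, and 1.65 over 6 in endothelial-rich members) all had a fold change above 0, as 12 of the 13 were in other cells. Ccna2, Cdk1, Birc5, Ube2c, Mcm3, Mcm5 and Mcm6 passed the filter on low counts through the late libraries alone, which set their direction. Untested genes went both ways, such as Tpx2 upward and Hells downward (66.0, 23.45, 11.85 and 0 CPM). Tubb5, a tubulin, stood at 1121, 655, 1956 and 1321 CPM in day 1 replicates 1 and 2, day 3 and day 6.

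No MHC gene passed between late and early members by edgeR. All 8 tested genes of class I presentation had a fold change above 0 in members (median 1.43; 1.33 over 7 in endothelial-rich members), and pooled levels in other cells were higher in late libraries for all 8. Of these, Psmb8 passed the filter on low counts through the late libraries alone, which set its direction in members. H2-K1, a class I heavy chain, stood at 765, 421, 1716 and 2690 CPM in members and 743, 406, 1340 and 3034 CPM in other cells (late over early in members 2.09 ± 0.59 SE, edgeR adjusted p = 0.549). The class II gene H2-Aa stood at 66.0, 81.4, 32.6 and 2059 CPM in members, so that day 6 alone was high. In endothelial-rich members H2-Aa stood at 79.5, 74.96, 29.6 and 832.5 CPM, and other cells of day 6 held 1620 CPM. The endothelial-rich members of day 6 held 97.9 CPM of macrophage markers and 7689 CPM of B and plasma cell markers. The source of the H2-Aa counts was not tested. Xist was at 0 in both day 1 libraries and at 35.6 and 179 CPM in day 3 and day 6 members, while the Y-linked Ddx3y stood at 66.0 and 91.3 CPM in day 1 and 0 in the late libraries. Sex of the animals thus moved with the early and late groups and cannot be told apart from day.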

How the data were processed

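The deposited files, 1 per library, held UMI counts by barcode, which the authors made with dropEst on GRCm38.85 with no normalization. Day 1 replicate 1 and day 3 carried a single index (BGI MGI-Seq), the others a dual index (NovaSeq6000 for the tumor libraries). Whether days count from the start or end of treatment differs between sections of the study. Total UMIs were 5132360, 16904947, 6659486, 16079367 and 5814641 in day 1 replicates 1 and 2, day 3, day 6 and normal colon, over 752, 2450, 1419, 2830 and 1108 barcodes, which limits sums over few members.

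Barcodes with at least 500 genes and at most 15% mitochondrial counts were kept. Names altered in the normal table were mapped back (1172 genes), and 49 names turned into dates were dropped. Counts of members were summed per library (at least 10 cells, or 5 for endothelial-rich members) and tested by edgeR 4.0.16 in R 4.3.3 (quasi-likelihood test after filterByExpr and TMM scaling, adjusted by Benjamini-Hochberg, called under 0.05), with DESeq2 1.42.0 as an alternative. CPM is computed from the summed UMIs of members. Shares were compared by exact permutation over libraries in Python 3.11.15 with scipy 1.17.1; figures used matplotlib 3.10.9. The tests were tried on simulated data. The members and the gene lists were chosen with earlier results of these data known. Named genes were up to 8 called and the 2 most abundant genes of each list, the rule genes, 15 genes by ratio to other cells, and 10 per direction by fold change with at least 2 times the level of other cells, called first and otherwise with at least 20 counts and no overlap of groups. Other genes in the text were chosen after their values were seen. Alternatives were another tool, filters, scalings, memberships, thinning, index structure and leaving out libraries. Epcam was not analysed here.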

Additional observations from a re-analysis of the deposited data

Results flagged for a closer look

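In the 4 tumor libraries, 80 values were screened for a single library that stood apart from the other 3 by Dixon's test, and 14 did. The test's chance rate of about 1 in 20 assumes equal spread, which sums of 75804 to 810379 UMIs do not have. The count of 14 therefore cannot be read against that rate. Day 1 replicate 2 was apart in contractile genes, with 180 CPM of Acta2, 25.9 CPM of Des and 24.7 CPM of Myh11. It was also apart in Col5a2 (332 CPM), a fibrillar collagen, in Pyy (2082 CPM), a gut hormone, and in Pnliprp1 (275 CPM), a lipase relative. Day 1 replicate 1 was apart in Selp (1425 CPM) and Angpt2 (132 CPM). Day 3 was apart in Sprr2d (907 CPM). Day 6 was apart in C1qa (1274 CPM) and Cd74 (1297 CPM), genes of macrophages and of antigen presentation, and in Lcn2 (1214 CPM), an antimicrobial protein. It was also apart in the transcription factors Sox17 (47.6 CPM) and Sox7 (47.6 CPM), which rested on 4 counts each. Day 1 replicate 1 and day 6 had 12 and 18 members.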

How the results depend on the processing

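The 130 genes called between tumor and normal members became 442 with no filter on low counts, 300 with at least 3 rule genes detected (which also dropped day 1 replicate 1, left with under 10 cells), 245 with 3 groups in 1 fit, 489 in dual index libraries alone, and 100 to 226 when 1 tumor library was left out (226 without day 6). Of 45 named genes called outside the rule, 15 were called in the same direction under every setting that gave a value; 23 kept the call under the endothelial scaling, 28 with DESeq2, and 34 without day 1 replicate 1. The absence of calls between late and early members was less stable: DESeq2 gave 17, no filter 94, at least 6 rule UMIs 62 and at least 3 rule genes 36 (both without day 1 replicate 1, which they left with under 10 cells), the endothelial scaling 25, 3 groups in 1 fit 4, and index structure as a block 24, and leaving out 1 library gave 4 to 195 (4 without day 1 replicate 2, 195 without day 6). The cause was not tested. The difference of shares, late minus early, turned to 0.476 points without day 1 replicate 2 and 0.954 without day 6 (range -1.93 to 0.954); tumor minus normal ranged from -3.47 to -2.50. A fit without members richer in markers of other cell types could not be fitted, since it left no residual degrees of freedom. No paired analysis by replicate number was possible because late numbers come from accession order alone; the block above pairs libraries by index structure. Few members in day 1 replicate 1 and day 6, and 1 normal library, limit precision.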

Other observations

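Among endothelial-rich members, 2 or more UMIs of the venous list were found in 8 of 9, 41 of 55, 31 of 36 and 11 of 15 cells of day 1 replicates 1 and 2, day 3 and day 6, and in 21 of 50 cells of normal colon. For the arterial list the counts were 0, 18, 11 and 5 against 30 of 50, and for the capillary list 3, 25, 20 and 2 against 47 of 50. Cells were not thinned for these counts, and Lrg1 of the venous list was also common in other tumor cells. In normal colon 20 of 50 cells held 2 or more UMIs of pericyte genes, against 1, 3, 0 and 0 in the tumor libraries. Arterial and capillary genes met in 30 of the 50 normal cells, so the lists do not divide these cells into classes.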
